A study of Mus musculus with 6 samples.

Results

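miR-9 and miR-124 are miRNAs best known from neurons, and here they were read in the white adipose tissue (WAT) of mice. The 4 mature arms described are miR-9-5p (MIMAT0000142), miR-9-3p (MIMAT0000143), miR-124-3p (MIMAT0000134) and miR-124-5p (MIMAT0004527), out of 707 mature miRNAs in the count table. They were chosen by name, at a time when the counts of these libraries in the chronic intermittent hypoxia (CIH) and control groups were known, and miR-9-3p is one of the miRNAs that the study carried on to RT-qPCR, whose values are not analysed here. The differences between CIH and control given for these arms are therefore a description. The number of arms called in a fit over all miRNAs is printed beside the share of all miRNAs called, and nothing is read from it.

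The libraries, 3 of the control group and 3 of the CIH group, came from male ApoE-deficient mice. CIH lasted 8 weeks, in which the inspired oxygen fell and returned in repeated short cycles. The mice of both groups lacked apolipoprotein E, a protein that helps to clear lipoproteins from the blood. The controls thus carry the same deficiency, and wild-type mice were not part of the comparison. The labels give the tissue as WAT without naming the fat depot. They do not say that the numbered replicates of the groups belong together. Nor do they say whether each library came from its own mouse or was prepared separately. The p-values given therefore measure the spread between these libraries, which may be technical.

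A miRNA hairpin is cut into a short duplex of a 5p and a 3p arm, and one arm is usually loaded into Argonaute as the guide while the other, the passenger, is mostly degraded. The guide pairs with messenger RNAs mainly through its seed, bases 2 to 8. In the nervous system, miR-9 takes part in the timing of neural progenitor proliferation and differentiation, and miR-124 is a miRNA of mature neurons that lowers many non-neuronal transcripts. Fat is innervated and contains nerve fibres, and both miRNAs are also known from some non-neuronal cells. In bulk tissue, fewer cells of a type and less RNA per cell cannot be told apart.

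The mature sequences of the miR-9 arms are shown because the reads are assigned to an arm by them. They are RefSeq's, in the miRNA table of build GRCm38.p6, where 2 of the 4 arms were matched, and the seed is in capitals.
miR-9-5p: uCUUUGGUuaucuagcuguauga
miR-9-3p: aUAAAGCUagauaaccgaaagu
The arms have different seeds, CUUUGGU and UAAAGCU, and no other of the 1679 mature names in the table carried either seed. The sequence of miR-9-5p is 23 bases long and that of miR-9-3p 22 bases.

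Both arms are encoded by 3 hairpins on different chromosomes, so that a read does not tell the loci apart. The hairpins are shown with the 5p arm and then the 3p arm in capitals.
Mir9-1: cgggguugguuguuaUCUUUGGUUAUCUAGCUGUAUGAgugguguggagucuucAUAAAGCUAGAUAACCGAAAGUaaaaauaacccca
Mir9-2: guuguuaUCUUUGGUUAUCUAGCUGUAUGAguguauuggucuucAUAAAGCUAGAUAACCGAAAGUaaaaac
Mir9-3: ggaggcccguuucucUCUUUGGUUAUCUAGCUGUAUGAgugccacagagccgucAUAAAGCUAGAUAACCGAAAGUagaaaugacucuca
Mir9-1 lies at chr3:88215598-88215686, Mir9-2 at chr13:83738814-83738885 and Mir9-3 at chr7:79505264-79505353, each on the plus strand. In GENCODE M21 they fall in long noncoding genes, in an intron of Gm3764, an exon of C130071C03Rik and an intron of Mir9-3hg. The arms were identical in the 3 hairpins, which differed in the flanks and in the loop of 14 to 16 bases between the arms. RNAfold gave 19 base pairs between the arms in each of them, with a minimum free energy of -41.0, -28.2 and -41.7 kcal/mol for Mir9-1, Mir9-2 and Mir9-3.

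A related miRNA, miR-9b, is annotated on the minus strand, with its 5p arm at 2 loci and its 3p arm at 3. Its arms are shown because they resemble those of miR-9.
miR-9b-5p: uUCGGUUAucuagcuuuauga
miR-9b-3p: aUACAGCUagauaaccaaaga
miR-9b-3p differs from miR-9-3p by 3 edits, and miR-9b-5p from miR-9-5p by 4, and neither shares its counterpart's seed. The whole 21 bases of miR-9b-3p are complementary to miR-9-5p. The RT-qPCR primer for miR-9-3p, ggggggATAAAGCTAGATAACC, matches the first 16 bases of the mature sequence (capitals) behind 6 added bases, and those 16 bases occur in no other mature miRNA of the table. miR-124 is encoded by Mir124a-1, Mir124a-2 and Mir124a-3.

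The libraries held between 636963 and 4783768 counts. Control 1 and control 2 stood apart from the other 4 libraries: the correlation of log2 levels across miRNAs, which are not independent, was between 0.618 and 0.719 for control 1 or 2 with any of the other 4, against 0.956 to 0.977 among control 3 and the CIH libraries. In addition, 40 miRNAs had at least 10 counts in each of these 4 libraries and 0 in both control 1 and control 2, and 18 of the 40 had at least 100 counts in each. No other pair of libraries showed a miRNA with this pattern. These 40 miRNAs made up 1.05% to 2.88% of the counts in the 4 libraries. None of the 4 arms is among them, but miR-124-5p, at 0 in both control 1 and control 2, could not qualify. It had fewer than 10 counts in each of the other 4 libraries. The part of this split in the values of the 4 arms was not tested, and the fitted changes are given both without control 3 and with control 3 as the lone control.

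Of the 4 arms, miR-9-5p gave nearly all of the reads. Its reads numbered 414, 340 and 342 in controls 1, 2 and 3, and 773, 1060 and 767 in CIH libraries 1, 2 and 3. Scaled to 1000000 counts of the library (CPM), this was 303, 71.1 and 431 for the controls and 490, 1437 and 1204 for the CIH libraries. Every CIH library lay above every control library, although the gap between control 3 and CIH 1 was small: their 95% exact binomial intervals, which cover counting error only, overlapped, with an upper end of 480 CPM for control 3 and a lower end of 456 CPM for CIH 1. The controls averaged 269 ± 183 CPM (SD, n = 3), and the CIH libraries averaged 1044 ± 494 CPM (SD, n = 3), which is 3.89 times as high. Among the 707 miRNAs, miR-9-5p ranked between 71 and 165 by level in the 6 libraries, and it had at least 340 counts in each.

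miR-9-3p, the passenger arm in most tissues, was read 10, 2 and 11 times in controls 1, 2 and 3, and 30, 70 and 43 times in CIH libraries 1, 2 and 3. Its level was thus 7.32, 0.418 and 13.9 CPM for the controls, against 19.0, 94.9 and 67.5 CPM under CIH. The CIH libraries again lay above the controls, with CIH 1 nearest to them. The 2 counts of control 2, the deepest library, lie under the limit of 3 counts that a count of 0 allows, which is 0.627 CPM there. The control mean was 7.20 ± 6.73 CPM (SD, n = 3) and the CIH mean 60.5 ± 38.4 CPM (SD, n = 3), a ratio of 8.39. The spread within both groups was wide, with a coefficient of variation of 93.4% in the controls and 63.6% under CIH.

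miR-124-3p, the guide arm of miR-124, was read in the range of the miR-9 passenger arm. Controls 1, 2 and 3 gave 1, 17 and 19 reads of it, and CIH libraries 1, 2 and 3 gave 26, 11 and 18, or 0.732, 3.55 and 24.0 CPM against 16.5, 14.9 and 28.3 CPM. The groups overlapped, because control 3 lay within the range of the CIH libraries while control 1 and control 2 lay below it. The control mean was 9.42 ± 12.7 CPM (SD, n = 3), an SD above the mean itself, and the CIH mean was 19.9 ± 7.30 CPM (SD, n = 3).

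miR-124-5p, the passenger arm, was at the limit of detection. Controls 1, 2 and 3 gave 0, 0 and 1 reads of it, against 4, 5 and 6 from CIH libraries 1, 2 and 3. The 0 counts allow up to 2.20 CPM in control 1 and 0.627 CPM in control 2, while control 3 had 1.26 CPM and the CIH libraries had 2.53, 6.78 and 9.42 CPM. Summed over libraries, 1 count in the control group stands against 15 in the CIH group, a ratio of 35.3 after division by the summed library totals, with an exact 95% interval of 5.43 to 1485 from counting error only. Control 2 holds most of the summed control total, and the ratio of the group means, which weights libraries equally, was 14.9 in CPM. The same absence from control 1 and control 2 was found in other rare miRNAs. There were 104 miRNAs with 10 to 25 counts summed over the other 4 libraries, miR-124-5p included with 16. Of these 104, 24 (23.1%) were at 0 in both control 1 and control 2, and miR-124-5p is counted among the 24.

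**Figure D1:**
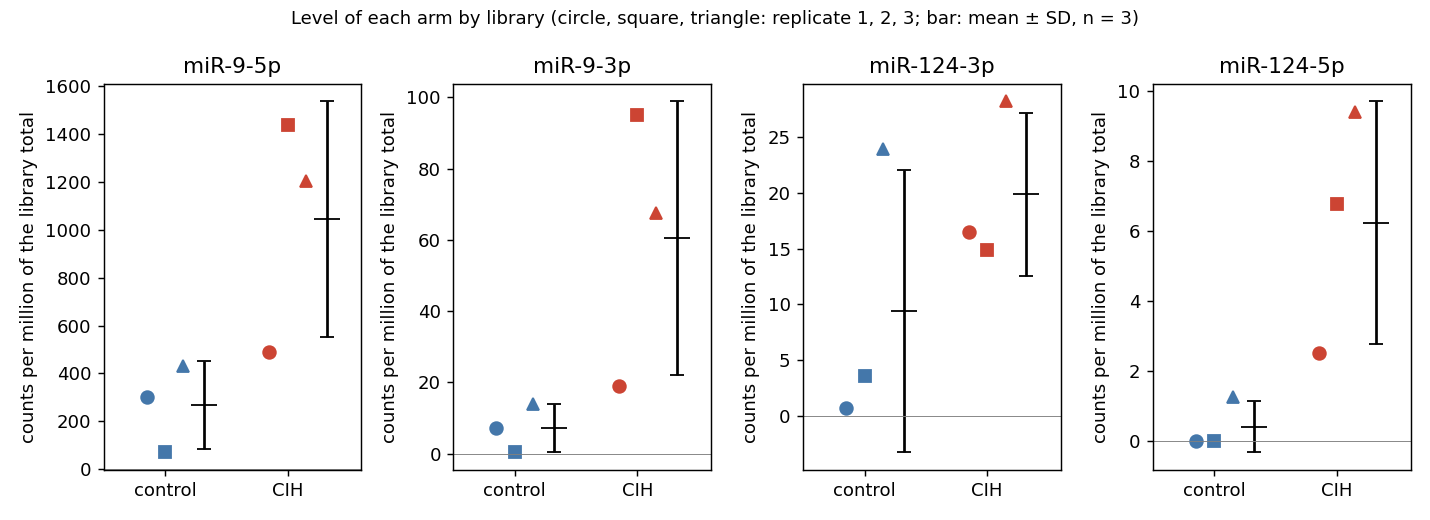
Level of each arm in CPM (vertical axis) in the control (blue) and CIH (red) libraries, with circles, squares and triangles for replicates 1, 2 and 3 and black bars for the mean ± SD of 3 libraries. The CIH points of miR-9-5p, miR-9-3p and miR-124-5p lie above all control points, while control 3 of miR-124-3p, at 24.0 CPM, lies among the CIH points.

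In order of level, miR-9-5p was first in every library. In the control group it was followed by miR-124-3p and miR-9-3p, whose ranges of 0.732 to 24.0 and 0.418 to 13.9 CPM overlapped, and in the CIH group by miR-9-3p and miR-124-3p, at 19.0 to 94.9 and 14.9 to 28.3 CPM, which overlapped too. miR-124-5p was last in every library. For 3 of the 4 arms, all CIH libraries lay above all control libraries in CPM, and this held for 3.63% of the 633 miRNAs that reached 10 counts summed over the libraries. One of these arms, miR-124-5p, reached 10 counts only through the CIH libraries, with 15 counts there and 1 in the controls. With the library totals corrected for composition by TMM (trimmed mean of M-values), it held for the same 3 arms and for 5.06% of these 633. On that scale miR-9-5p was at 527, 82.0 and 308 CPM in controls 1, 2 and 3 and at 621, 1145 and 832 CPM under CIH, so that control 1, rather than control 3, lay nearest to the CIH libraries. The ratio of the group means was then 2.83 for miR-9-5p and 6.33 for miR-9-3p, lower than in CPM, while it was 2.32 for miR-124-3p, against 2.11 in CPM, and 16.8 for miR-124-5p, against 14.9 in CPM.

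The comparison of CIH with control was fitted over these 633 miRNAs with TMM factors and the quasi-likelihood test of edgeR. The fitted log2 change, CIH minus control, was 1.5 (standard error 0.81) for miR-9-5p, 2.71 (standard error 1.15) for miR-9-3p and 1.21 (standard error 0.96) for miR-124-3p. That of miR-124-5p was 4.05 (standard error 1.35), a value that depends on the prior count because the control group holds a single read. The standard errors of the edgeR fits were derived from the test, as the size of the log2 change divided by the square root of the F statistic. The median log2 change of the 4 arms was 2.11, and that of all 633 miRNAs was 0.07. The 4 arms come from 2 miRNAs, so their changes are not independent. By rank among the 633, the change was the highest for miR-124-5p, and it stood at place 8 for miR-9-3p, 56 for miR-9-5p and 95 for miR-124-3p. With 1 control count and 15 CIH counts, miR-124-5p entered the 633 through the CIH group. Its rank, and its calls below, are therefore a description only. A miRNA was called here at a change of 1.5-fold or more with p under 0.05 before adjustment. By this rule, 1 of the 4 arms, miR-124-5p, was called higher in CIH, against 3 miRNAs (0.474%) of the 633, and it was not called without CIH 2, without CIH 3 or with control 3 as the lone control. The number called higher was 9 without control 1, 8 without control 2, 163 without control 3 and 0 without CIH 3. Of all calls, 3 were higher and 13 lower with TMM factors, against 6 higher and 7 lower with plain library totals. Leaving aside the lone control 3, miR-9-5p was called without control 1 and miR-124-3p without control 3, among 9 and 163 called higher there. miR-9-3p was called without control 1 and without control 2, among 9 and 8 called higher. It was also called with library totals, with totals without the 5 most abundant miRNAs and with DESeq2, among 6, 7 and 8. In the other alternatives that fitted it, miR-124-5p was called, among 2 to 163 called higher. All these fits reuse the same 6 libraries, so their calls do not add to each other. After Benjamini-Hochberg adjustment of edgeR's test, 0 of the 633 miRNAs had a p-value under 0.05, with 16 at an unadjusted p-value under 0.05, and DESeq2 also gave 0, with 26 unadjusted.

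**Figure D2:**
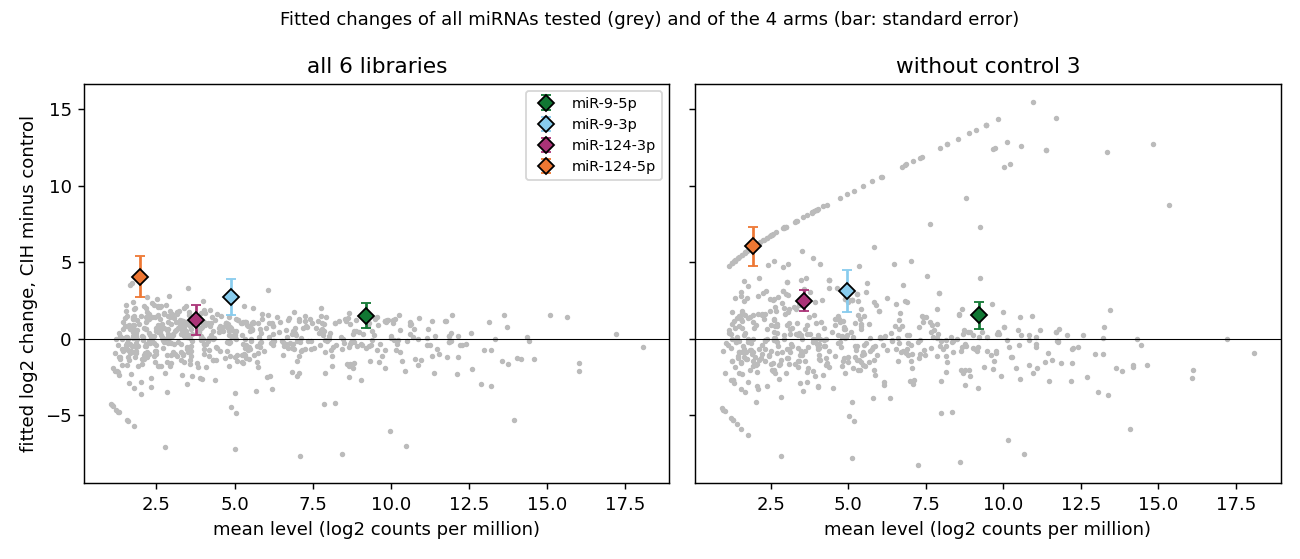
Fitted log2 change, CIH minus control (vertical axis), against mean level in log2 CPM (horizontal axis) for the 633 miRNAs tested (grey) and the 4 arms (coloured diamonds with standard errors), with all 6 libraries on the left and without control 3 on the right. On the left the 4 arms lie between 1.21 and 4.05, and on the right the diagonal line of grey points holds miRNAs at 0 in both remaining control libraries, with miR-124-5p at its lower end.

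The fitted changes of all 4 arms moved with the control libraries that entered the fit, and whether they moved differently for miR-9 and miR-124 was not tested. Without control 1, the fitted log2 change was 2.22 for miR-9-5p, 3.42 for miR-9-3p, 0.82 for miR-124-3p and 3.91 for miR-124-5p. Without control 2, it was 1.11 for miR-9-5p, 2.16 for miR-9-3p, 0.97 for miR-124-3p and 3.08 for miR-124-5p. Without control 3, the fitted log2 change was 1.51 for miR-9-5p and 3.11 for miR-9-3p, near the values with all libraries, while it was 2.49 for miR-124-3p, over 1.5 times its value with all libraries, and 6.02 for miR-124-5p, which then had no control read. In that fit 2 of the 4 arms were called, miR-124-3p and miR-124-5p, where 25.8% of all miRNAs tested were called higher. With control 3 as the lone control, the fit assumes that it varies like the CIH libraries, and the log2 change was 1.58 (standard error 0.51) for miR-9-5p, 2.37 (standard error 0.81) for miR-9-3p, 0.13 (standard error 0.50) for miR-124-3p and 2.40 (standard error 1.08) for miR-124-5p. There the 2 miR-9 arms were called, where 2.37% of all miRNAs tested were called higher. Control 3 was the control that most resembled the CIH libraries. In CPM it lay below their range for both miR-9 arms and for miR-124-5p (1 read), and within it for miR-124-3p. This rests on a single library, and its 95% counting interval for miR-9-5p overlapped that of CIH 1.

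**Figure D3:**
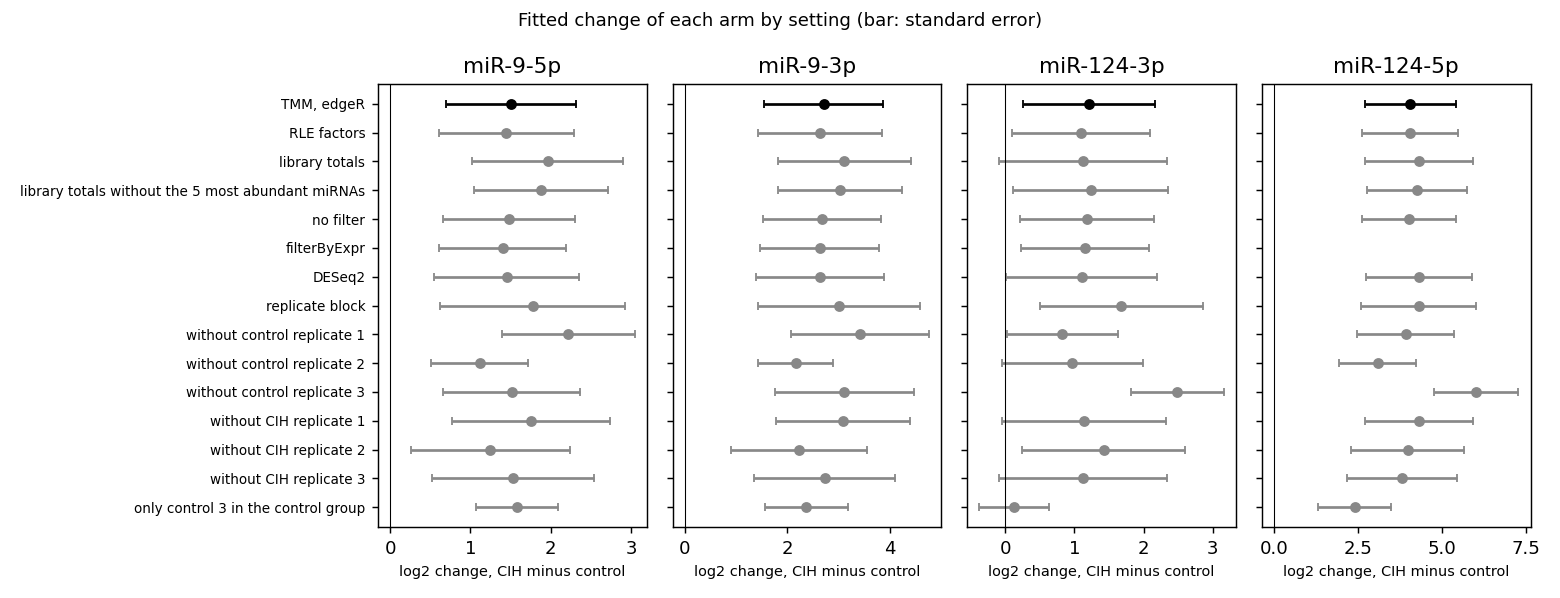
Fitted log2 change of each arm, CIH minus control (horizontal axis), with its standard error under each normalization, filter, test and left-out library (vertical axis). All points lie above 0. The lowest is 0.13 for miR-124-3p with control 3 as the lone control, and the row of edgeR's filterByExpr filter holds no point for miR-124-5p, which it removes.

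Within a library, the counts of the arms can be set against each other without any normalization. miR-9-5p outnumbered miR-9-3p in 6 of 6 libraries, by a mean log2 ratio of 5.0 ± 1.14 (SD, n = 6, pseudocount 0.5, two-sided exact sign-flip permutation test, p = 0.0313, Benjamini-Hochberg adjusted over 3 such comparisons p = 0.0313). This is the smallest p that 6 libraries allow. miR-124-3p outnumbered miR-124-5p in 6 of 6 libraries, by 2.59 ± 1.56 (SD, n = 6, same exact test, p = 0.0313, adjusted p = 0.0313), where control 1 gave 1 read against 0. miR-9-5p outnumbered miR-124-3p in 6 of 6 libraries as well, by 5.55 ± 1.52 (SD, n = 6, same exact test, p = 0.0313, adjusted p = 0.0313), with ratios of counts from 18.0 in control 3 to 414 in control 1. Adapters are ligated to some sequences more readily than to others, so a ratio of reads is not a ratio of molecules.

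The share of the passenger arm was also set against the group. Of the reads of both miR-9 arms, miR-9-3p made up 2.36%, 0.585% and 3.12% for controls 1, 2 and 3, against 3.74%, 6.19% and 5.31% for CIH libraries 1, 2 and 3. The CIH shares were all above the control shares, but the 95% exact interval of control 3, 1.57% to 5.51%, includes the shares of CIH 1 and CIH 3. The controls averaged a share of 2.02% ± 1.30 (SD, n = 3), and the CIH libraries one of 5.08% ± 1.25 (SD, n = 3). For miR-124, the 5p arm made up 0 of 1, 0 of 17 and 1 of 20 reads in controls 1, 2 and 3, and under CIH 13.3%, 31.3% and 25% of 30, 16 and 24 reads. The 95% exact interval reached 19.5% for control 2 (0 of 17 reads) and 24.9% for control 3. Both lie above the lower ends of the intervals of all 3 CIH libraries. Overlapping intervals do not show that shares are alike, and pairs of libraries were not tested. These shares come from the counts with which the members were chosen, and no test of the group difference is given.

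**Figure D4:**
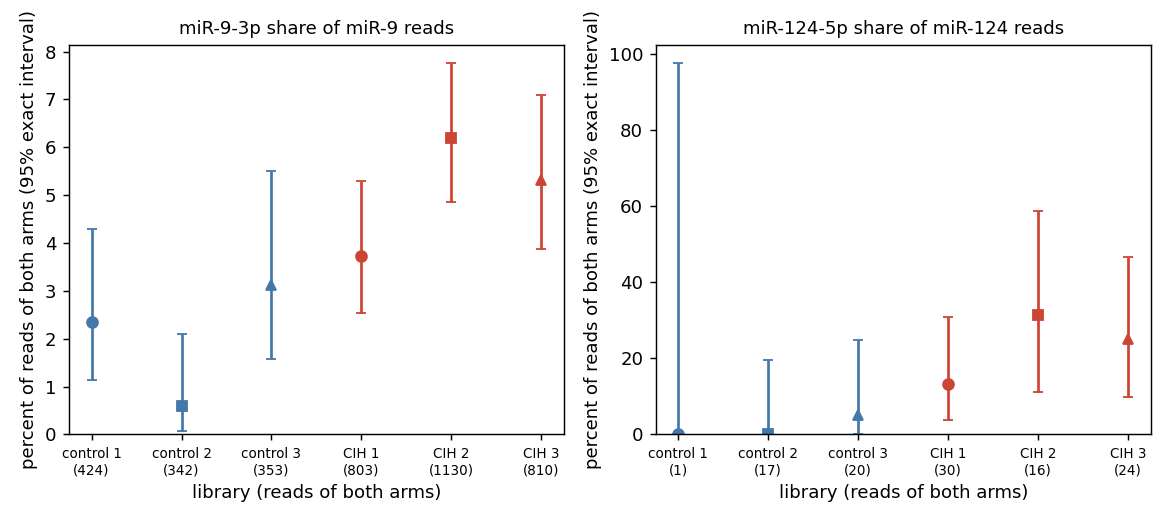
Share of the passenger arm in the reads of both arms, in percent with 95% exact binomial intervals (vertical axis), for miR-9 (left) and miR-124 (right) in each control (blue) and CIH (red) library, with the reads of both arms in brackets. The miR-9-3p shares run from 0.585% to 3.12% in controls and from 3.74% to 6.19% under CIH, and the intervals of miR-124, from 1 to 30 reads, are wide.

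The profiles of the arms over the 6 libraries were compared by the root mean square difference of log2 CPM (prior count 2) after each profile was centred on its mean, among 408 other miRNAs with at least 10 counts in at least 3 libraries. Seen from miR-9-3p, its partner arm miR-9-5p had the fifth smallest difference, 0.83, and seen from miR-9-5p, miR-9-3p stood at place 19. The profile of miR-124-3p differed from miR-9-5p by 1.12 and from miR-9-3p by 1.61, at places 144 and 272 as seen from miR-124-3p. miR-124-5p had too few counts for this comparison. The nearest profile was MIMAT0000147 for miR-9-3p, with a difference of 0.56, and MIMAT0017017 for miR-124-3p, with 0.20, and the file does not pair these accessions with names. MIMAT0017017 gave 3, 21 and 29 reads in controls 1, 2 and 3, and 37, 22 and 25 in CIH libraries 1, 2 and 3. Like miR-124-3p, it had a low control 1 and control 2 and a control 3 within the CIH range in CPM. It was picked by this likeness, so the shared pattern is no separate result.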

How the data were processed

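Small RNA libraries from mouse WAT, 3 control and 3 CIH, were analysed, grouped by their labels. The values deposited by the authors are raw read counts, 1 row for each of 707 mature miRNA accessions. Trimming, the aligner, the miRNA database release and the handling of multiply matching reads are not given in the sources used here, and such choices could move reads between similar sequences. The counts of no other accession were identical to those of a member.

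CPM was computed from library totals. The 633 miRNAs with at least 10 counts over the 6 libraries were fitted with edgeR 4.0.16 in R 4.3.3 (TMM, quasi-likelihood, group as the only term). The code was first tried on simulated counts with known answers. That trial used the same spread for every miRNA and no split among the controls. It therefore does not show how the fit behaves under the split seen here. Arms were compared within libraries by exact sign-flip tests, and intervals are Clopper-Pearson. With 3 libraries a group, exact permutation reaches no p below 0.1. Python 3.11.15, scipy 1.17.1 and RNAfold 2.7.2 were used. DESeq2 1.42.0, other scalings and filters, the replicate number as a block, and each library left out were the alternatives.

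The members and lists were chosen with earlier results of these data known. The miRNAs named are the 4 members, both arms of miR-9b, and those with the nearest profiles (5 were computed for each member compared, and 2 accessions are printed). Other miRNAs with a member's seed or within 3 edits of one were searched for the miR-9 arms only, which gave miR-9b-3p. miR-9b-5p, at 4 edits, is named as its partner arm. The file does not pair accessions with names, so lists of neural, adipose and other miRNAs, which would check the labelled tissue, were not run, and the counts of miR-9b are not analysed here.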

Additional observations from a re-analysis of the deposited data

How the results depend on the processing

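The fitted log2 changes of the 4 arms were above 0 in every alternative that tested them, 14 for each arm but 13 for miR-124-5p, which the filterByExpr filter removed. Leaving out single libraries, the log2 change ran from 1.11 to 2.22 for miR-9-5p, 2.16 to 3.42 for miR-9-3p, 0.82 to 2.49 for miR-124-3p and 3.08 to 6.02 for miR-124-5p, the last 2 upper values without control 3. With control 3 as the lone control, chosen after seeing the data, it was 2.40 for miR-124-5p and 0.13 for miR-124-3p. Library totals raised the median log2 change of all miRNAs from 0.07 to 0.33.

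By the rule of 1.5-fold with an unadjusted p under 0.05, 16 miRNAs were called, 3 higher and 13 lower. The total was 8 with filterByExpr, which tests fewer miRNAs, and 26 with DESeq2 (8 higher). Library totals gave 6 higher and 7 lower, totals without the 5 most abundant miRNAs 7 and 9, no filter 8 higher, and the lone control 3 gave 15 higher. Leave-one-out gave 1 to 238 in all (238 without control 3, 6 without CIH 1, 6 without CIH 2 and 1 without CIH 3), 0 to 163 higher and 0 to 118 with an adjusted edgeR p under 0.05. The cause was not tested.

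The labels do not say whether a control and a CIH library with the same replicate number form a pair. Their deviations correlated at 0.299 for replicate 1, -0.146 for replicate 2 and 0.00482 for replicate 3. With 3 libraries a group, these values cannot decide whether the libraries are paired. The replicate block left 3 miRNAs called, and the log2 changes of the 4 arms in that fit were above 0.

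With 1 library fewer, the mean log2 ratio ran from 4.58 to 5.22 for the miR-9 arms, 2.08 to 2.90 for the miR-124 arms and 5.04 to 5.83 for miR-9-5p over miR-124-3p, where 5 libraries cannot give an exact p under 0.0625. Other pseudocounts changed no call. With a prior count of 0.5 in place of 2, 4, 4 and 2 of the 5 nearest profiles of miR-9-5p, miR-9-3p and miR-124-3p were the same. The profile nearest to miR-124-3p was then that of another miRNA. Single-digit counts limit miR-124-5p in every library.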
